A study of Homo sapiens with 5 samples.

Results

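The genes described here are the 6 that encode the core machinery of microRNA maturation: DICER1, DROSHA, DGCR8, XPO5, TARBP2 and PRKRA. They were taken from the deposited table by gene symbol, all 6 were found, and they are 6 of 57773 genes in all. RNA was measured in 5 libraries of HCT116, an established human colorectal carcinoma line, in cells that the series calls Dicer knockout. Every library therefore carries the knockout, the negative control included. The labels name neither the altered DICER1 allele nor the number of clones, and the kind of methyl group is not stated. The groups are a negative control transfection, let-7a in a native (let7a-native) and a methylated form (let7a-19A), and miR-17 in the same 2 forms (miR17-native and miR17-13A), with 1 library each. The study's title asks how methylated microRNAs act on the breakdown of their target mRNAs.

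As background, a microRNA begins as a hairpin in a long primary transcript. In the nucleus the Microprocessor, made of the RNase III enzyme DROSHA and its RNA-binding partner DGCR8, cuts the hairpin out. XPO5 (exportin 5) carries the hairpin to the cytoplasm with the GTPase RAN. DICER1, a second RNase III enzyme, then removes the loop and leaves a short duplex, helped by the double-stranded RNA-binding proteins TARBP2 (TRBP) and PRKRA (PACT). A synthetic mature duplex enters Argonaute without these steps, which is why Dicer-deficient cells can be refilled with 1 chosen microRNA. DICER1 is also a textbook let-7 target, with let-7 sites described in its coding sequence.

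The transfected microRNAs are shown first, because the search for matches in the 6 genes rests on them. Both are the human mature sequences of RefSeq (table of GRCh38.p14), with the seed, bases 2 to 8 from the 5′ end, in capitals. The oligonucleotides themselves are not given in the labels.
let-7a-5p: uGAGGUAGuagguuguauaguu
miR-17-5p: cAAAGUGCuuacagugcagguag
The next lines mark in capitals the base at the number that each methylated sample carries in its label, 19 for let-7a and 13 for miR-17. Both are adenosines outside the seed, and reading the label numbers as positions from the 5′ end is an assumption.
let-7a-5p, base 19: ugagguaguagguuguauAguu
miR-17-5p, base 13: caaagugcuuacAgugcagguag

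DICER1 held 7 seed matches to let-7a, more than any of the other 5 genes. A match was CTACCTC (to bases 2 to 8) or TACCTCA (to bases 2 to 7, followed by A), read on the transcript strand, and an 8mer held both at once. The search used 1 GENCODE 29 transcript per gene, the one with the longest coding sequence. Of the 7 matches in DICER1, 5 lie in its coding sequence of 5769 bases, and 3 of these are 8mers. The other 2 lie in its 3′ untranslated region (UTR) of 4270 bases. The sites are printed with the match in capitals, since DICER1 had its lowest level of the 5 libraries with native let-7a.
DICER1 coding, bases 2429 to 2435: ctgacggccaaacccaTACCTCA
DICER1 coding, bases 2635 to 2641: tcagcatactgtgttCTACCTCt
DICER1 coding, bases 3641 to 3648: tacccgtgcaaccaaCTACCTCA
DICER1 coding, bases 3749 to 3756: gaaatgctaacaaatCTACCTCA
DICER1 coding, bases 5139 to 5146: agatgcgattttggaCTACCTCA
DICER1 3′ UTR, bases 1357 to 1363: gcactcttcacttaaaTACCTCA
DICER1 3′ UTR, bases 2918 to 2924: acttggtaccatgcttTACCTCA
Of 11701 genes searched (averaging 1 TPM or more, with a 3′ UTR of 50 bases or longer), 20.6% held a coding let-7a match and 15.6% held one in the 3′ UTR. Only 13 of them (0.111%) had 5 or more coding matches, and 5 (0.0427%) had 3 or more coding 8mers. DICER1 is in both sets. Its coding sequence is long, and of the 335 searched genes with one at least as long, 66.0% held a coding let-7a match.

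TARBP2, whose transcript is much shorter, held 2 let-7a matches, 1 near the end of its coding sequence of 1101 bases and 1 in its 3′ UTR of 283 bases. They are shown because TARBP2, like DICER1, had its lowest level of the 5 libraries with native let-7a.
TARBP2 coding, bases 1072 to 1078: ccgccgtgccctgcagTACCTCA
TARBP2 3′ UTR, bases 103 to 109: ctgtgggtgccatctCTACCTCt
XPO5 held 2 coding let-7a matches and DROSHA 1, all 7mers, and DGCR8 and PRKRA held none in either part. The XPO5 and DROSHA sites are not printed, and both genes were lowest with methylated miR-17. With native let-7a XPO5 had 33.6 against 34.7 TPM in the control, and DROSHA 18.0 against 19.2 TPM. Matches to miR-17, GCACTTT or CACTTTA, were fewer. DICER1 and DROSHA each had 1 coding and 1 3′ UTR match, both 7mers, and the other 4 genes had none. In the searched genes 13.2% held a coding miR-17 match and 27.8% a 3′ UTR match. Absence of a match says only that these letters are not in the transcript searched.

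**Figure D1:**
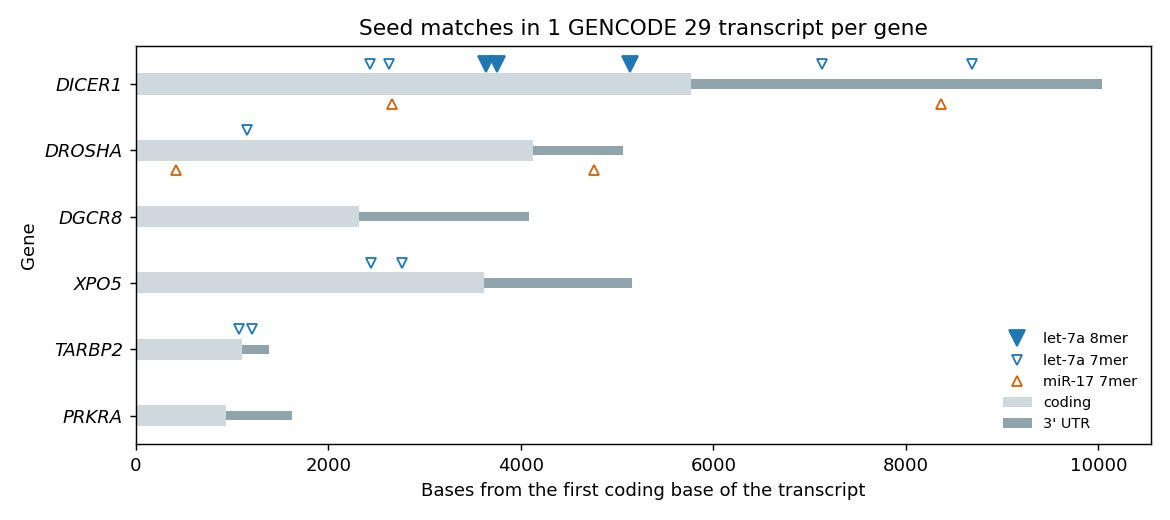
Seed matches along 1 GENCODE 29 transcript of each gene, to scale, in bases from the first coding base (x axis). Wide bars are coding sequence and thin bars 3′ UTR, downward triangles are let-7a matches (filled for 8mers) and upward triangles miR-17 matches. DICER1 carries 5 coding let-7a matches, with 3 filled, and DGCR8 and PRKRA carry none.

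All values are TPM, a level scaled for gene length and library total, as the authors deposited them. With 1 library in each group, no difference below has a replicate check, an SD or a p-value, and the depth behind each TPM is unknown. Differences are of log2(TPM + 1), first library minus second, and "tested" means the 14177 genes whose 5 libraries averaged 1 TPM or more. All 6 genes passed that filter. The 5 libraries listed between 14173 and 14396 genes at 1 TPM or more, and mitochondrially encoded genes held 9.36% to 12.6% of the TPM. Of 8 markers fixed for colon epithelium, 7 were expressed (EPCAM 524.4 to 618.8 TPM) and VIL1 was listed at 0 in all 5 libraries. Of 9 matched markers of blood, endothelium, fibroblasts and liver, 8 were at 1.1 TPM or below throughout, among them PTPRC and DCN at 0. COL1A1, a fibroblast collagen, had 10.8 TPM in the control against 14.1 to 16.3 TPM in the microRNA libraries, and its part in the results was not tested.

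The 6 genes differed in level by a few-fold and kept nearly the same order in every library. PRKRA was the highest, at 37.3 to 43.1 TPM, followed by XPO5 at 33.2 to 35.3 TPM. TARBP2 (17.1 to 24.6 TPM) and DROSHA (17.2 to 19.2 TPM) came next, and DICER1 (11.2 to 15.9 TPM) and DGCR8 (10.5 to 12.6 TPM) were the lowest. The order changed in 1 library: with native let-7a, TARBP2 was below DROSHA and DICER1 below DGCR8. TARBP2 and DROSHA, and DICER1 and DGCR8, overlapped in their ranges over libraries, so these neighbours cannot be ordered beyond that spread. PRKRA stood above XPO5, and XPO5 above the other 4 genes, in all 5 libraries. Among tested genes, PRKRA had a mean above 74.6% and DGCR8 above 42.2%.

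**Figure D2:**
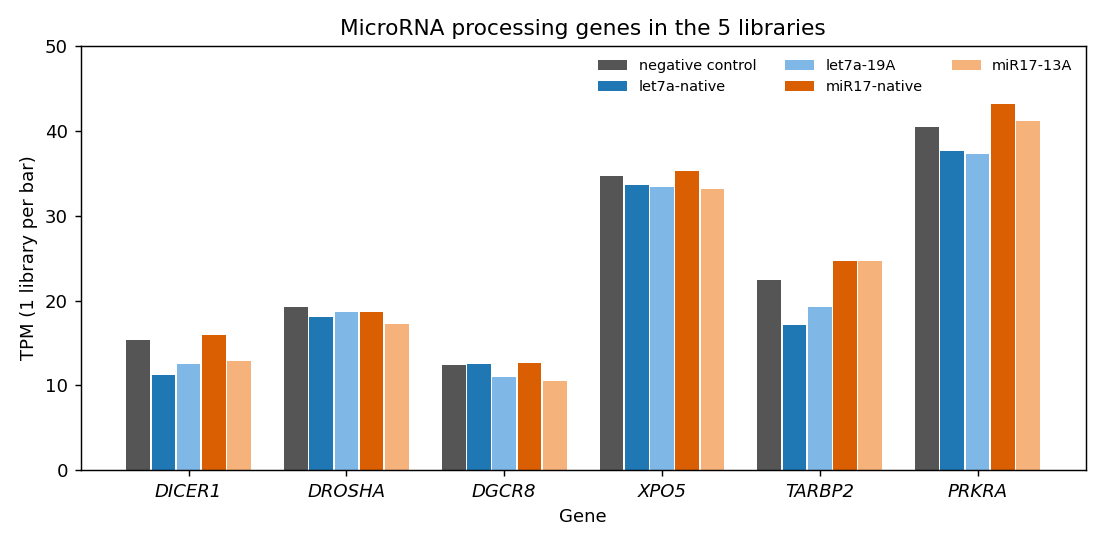
TPM (y axis) of each gene in the 5 libraries, 1 bar per library, without error bars because each group has 1 library. The DICER1 and TARBP2 bars are lowest with native let-7a, at 11.2 and 17.1 TPM, while the XPO5 bars lie between 33.2 and 35.3 TPM.

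The genes differed in how much they varied over the 5 libraries. TARBP2 and DICER1 spanned a ratio of 1.44 and 1.42 from the lowest to the highest library. On the log2(TPM + 1) scale their ranges were 0.50 and 0.47, beside a median range of 0.42 over all tested genes. The other genes, PRKRA among them, varied less. DGCR8 spanned a ratio of 1.20, PRKRA 1.16, DROSHA 1.12 and XPO5 1.06, and only 0.62% of tested genes had a smaller range than XPO5.

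DICER1, the enzyme that makes the final cut, had 15.4 TPM in the control. Under let-7a it had 11.2 TPM (native) and 12.5 TPM (methylated), and under miR-17 15.9 TPM (native) and 12.9 TPM (methylated). It was thus low in both let-7a libraries and in methylated miR-17, and high in the control and in native miR-17. Native let-7a differed from the control by -0.43 on the log2 scale, 1.34-fold lower in TPM + 1, and 7.44% of tested genes had a lower difference. Rounding of the deposited values to 1 decimal allows -0.44 to -0.42. Methylated let-7a differed by -0.28, with 13.0% of tested genes lower. With the mean of both miR-17 libraries in place of the control, DICER1 differed by -0.33 in native and -0.18 in methylated let-7a. Methylated miR-17 was -0.24 from the control, or -0.17 after scaling to equal medians, and before scaling 32.15% of tested genes were lower. However, it was 0.12 from the mean of the let-7a libraries, so its sign depends on the reference. In bulk RNA, a change in the mix of cells and a change in RNA per cell cannot be told apart. Because all libraries are of knockout cells, and none with intact Dicer was analysed here, these levels do not check the knockout. A gene-level TPM cannot tell a shortened or mutated DICER1 transcript from an intact one.

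TARBP2, the Dicer partner that binds double-stranded RNA, showed a different profile. It had 22.4 TPM in the control, 17.1 and 19.2 TPM under native and methylated let-7a, and 24.6 TPM in each of the miR-17 libraries. Both let-7a values lie below the control and both miR-17 values above it. The difference from the control was -0.37 with native let-7a, 1.29-fold lower in TPM + 1, with 9.36% of tested genes lower. It was -0.21 with methylated let-7a, and 0.13 in each miR-17 library. The value with methylated miR-17 was 0.2 after scaling to equal medians and 0.079 without mitochondrially encoded genes. Against the mean of the miR-17 libraries, TARBP2 lay at -0.50 with native and -0.34 with methylated let-7a.

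PRKRA, the second Dicer partner and the paralog of TARBP2, differed from the control in the same directions as TARBP2, by less. It had 40.5 TPM in the control, 37.6 and 37.3 TPM under native and methylated let-7a, and 43.1 and 41.2 TPM with native and methylated miR-17. Its differences from the control were -0.11, -0.12, 0.088 and 0.024 in that order. Rescaled without the mitochondrially encoded genes, the last of these became -0.028, so its sign depends on the scaling.

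The nuclear cutting step was measured through DROSHA and DGCR8. DROSHA, its catalytic subunit, had 19.2 TPM in the control, 18.0 and 18.6 TPM under native and methylated let-7a, and 18.7 and 17.2 TPM under native and methylated miR-17. The control was the highest library, and the difference in methylated miR-17 was -0.15. After scaling to equal medians this was -0.083, and native let-7a (-0.093) was then the farthest from the control. The other 3 differences, -0.088, -0.044 and -0.036, took the opposite sign (0.005, 0.05 and 0.03) with the other microRNA as reference. DGCR8 had 12.4 TPM in the control, 12.5 and 11.0 TPM under native and methylated let-7a, and 12.6 and 10.5 TPM under native and methylated miR-17. It was lower in both methylated libraries than in the other 3, which lay between 12.4 and 12.6 TPM. The differences between methylated and native form were -0.17 for let-7a and -0.24 for miR-17, the latter -0.16 after scaling to equal medians. Of tested genes, 19.35% and 19.64% had lower differences than DGCR8. In all, 57.1% and 69.0% of tested genes were lower in the methylated form. DGCR8 is known to be cut by the Microprocessor itself at hairpins in its own mRNA, and in GENCODE 29 its exons overlap the microRNA genes MIR3618 and MIR1306 on the same strand.

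XPO5, the export receptor, was the least variable of the 6 genes. It had 34.7 TPM in the control, 33.6 and 33.4 TPM under native and methylated let-7a, and 35.3 and 33.2 TPM under native and methylated miR-17. The differences from the control ran from -0.062 to 0.024, and those in methylated and native miR-17 changed sign under 1 of the 2 rescalings tried.

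Counted by size, none of the 6 genes reached a 2-fold difference in TPM + 1 in any of the 6 comparisons. The share of tested genes that did was 2.41% for native let-7a against the control, 2.16% for methylated let-7a, 3.42% for native miR-17 and 3.7% for methylated miR-17. It was 1.93% for methylated against native let-7a and 1.68% for methylated against native miR-17. At a smaller size, the higher TPM + 1 exceeding the lower by 25% or more, which was chosen after the values were known, 2 of the 6 genes differed with native let-7a, DICER1 and TARBP2, both lower. Of all tested genes 24.7% passed that size in either direction and 11.8% were lower. None of the 6 genes passed it in the other comparisons, where 19.3% (methylated let-7a), 33.6% (native miR-17), 40.4% (methylated miR-17), 12.4% (methylated against native let-7a) and 14.8% (methylated against native miR-17) of tested genes did. By direction alone, 5 of 6 genes were below the control with native let-7a (median -0.096), beside 47.9% of all tested genes (median 0.0). With methylated let-7a 6 of 6 were below (median -0.14), beside 56.1% of all tested (median -0.038). With native miR-17 1 of 6 was below (median 0.034), beside 46.5% of all tested (median 0.018), and without mitochondrially encoded genes 3 of 6 were (median 0.007). With methylated miR-17 4 of 6 were below (median -0.11), beside 56.3% of all tested (median -0.065). That count was 5 of 6 without mitochondrially encoded genes and 3 of 6 after scaling to equal medians, where the median was -0.038. With native let-7a it was 6 of 6 without mitochondrially encoded genes, as DGCR8 turned from 0.011 to -0.029. These 4 comparisons share the control library.

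**Figure D3:**
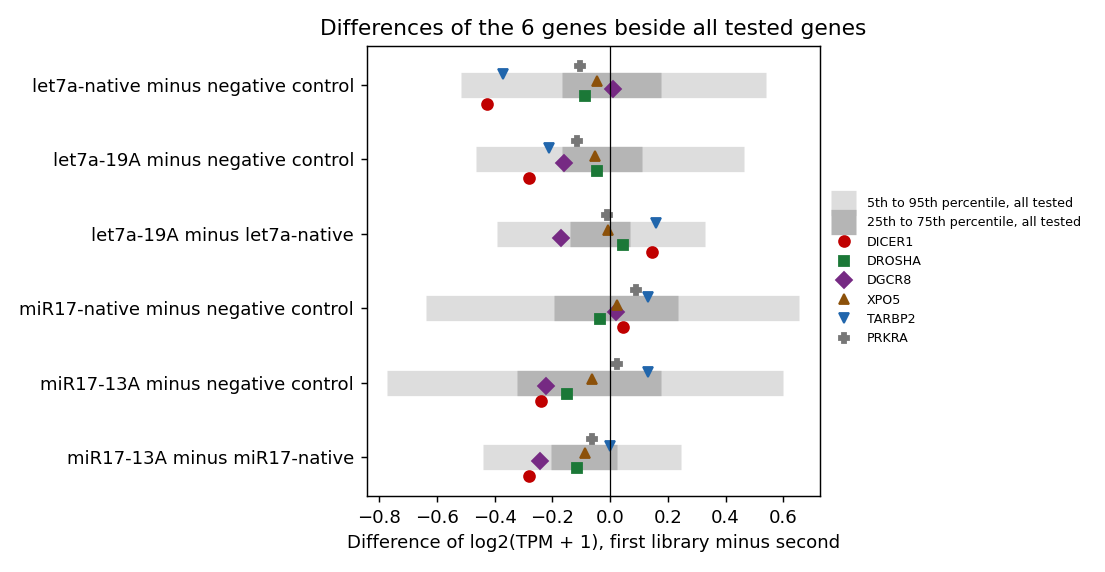
Difference of log2(TPM + 1) (x axis) of each gene in the 6 comparisons (y axis), over grey bands that hold the 5th to 95th and 25th to 75th percentiles of the tested genes. DICER1 (-0.43) and TARBP2 (-0.37) lie between the 5th and 25th percentile in native let-7a, and the remaining 4 genes lie inside the inner band there.

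The methylated form was also set against its native form, with 1 library each. The methyl group and any other difference between these libraries cannot be told apart. For DICER1 the 2 microRNAs gave opposite signs: methylated let-7a was higher than native by 0.15 (12.5 against 11.2 TPM), and methylated miR-17 was lower than native, at -0.28 (12.9 against 15.9 TPM). After scaling to equal medians these values were 0.18 and -0.2. Before scaling, 14.6% of tested genes had a higher difference than DICER1 between the let-7a forms. Between the miR-17 forms 14.5% had a lower one. TARBP2 was higher by 0.16 with methylated let-7a and equal in both miR-17 libraries. DROSHA differed by 0.045 and -0.11, or 0.079 and -0.03 after scaling to equal medians. XPO5 and PRKRA differed by -0.008 and -0.011 between the let-7a forms and by -0.086 and -0.064 between the miR-17 forms, and all 4 values were positive after scaling to equal medians. In methylated against native miR-17, 5 of 6 genes were lower and 1 was equal (median -0.1), beside 69.0% of all tested genes lower (median -0.089). After scaling to equal medians 3 were lower and 3 higher, TARBP2 among the latter at 0.086, with a median of -0.015, and without mitochondrially encoded genes 6 of 6 were lower.

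DICER1 was set beside the other genes with let-7a matches in their coding sequence and none in the 3′ UTR. With native let-7a, the median difference from the control was 0.033 in 7894 genes with no match, -0.042 in 1623 with 1 coding match, -0.091 in 277 with 2 and -0.20 in 81 with 3 or more. Of these 81 genes 63 were lower. With methylated let-7a the medians were -0.029, -0.067, -0.096 and -0.13, with 59 of the 81 genes lower. Methylated miR-17, with no let-7a added, showed medians in the same order of classes, at -0.038, -0.14, -0.2 and -0.29, with 66 of the 81 genes lower. With native miR-17 the medians were 0.026, -0.032, -0.033 and -0.066, with 51 of the 81 genes lower. DICER1 also has 3′ UTR matches and so belongs to another class, of 15 genes with 3 or more coding and at least 1 3′ UTR match. With native let-7a that class had a median of -0.2, with 12 of 15 lower, and DICER1 was at -0.43. With methylated let-7a it had a median of -0.12, with 13 of 15 lower, and DICER1 was at -0.28. With methylated miR-17 it had a median of -0.31, with 13 of 15 lower, and DICER1 was at -0.24. Methylated against native, the class had medians of 0.11 for let-7a (3 of 15 lower) and -0.26 for miR-17 (13 of 15 lower).

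The classes also differ in coding length, with a median of 1251 bases without a match and 5970 with 3 or more. Genes with a coding sequence at least as long as that of DICER1 and no 3′ UTR match were therefore listed as well. Their lengths still differed, with a median of 7065 bases in 93 genes without a match and 9045 in 43 with 3 or more coding matches. The medians of these classes were -0.025 and -0.14 with native let-7a, and -0.037 and -0.073 with its methylated form. They were -0.11 and -0.076 with native miR-17, and -0.3 and -0.31 with methylated miR-17. In methylated against native miR-17, 90 of the 93 genes were lower, with a median of -0.21. Genes are not replicates, and the contribution of coding length or of the matches to the DICER1 values was not tested.

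**Figure D4:**
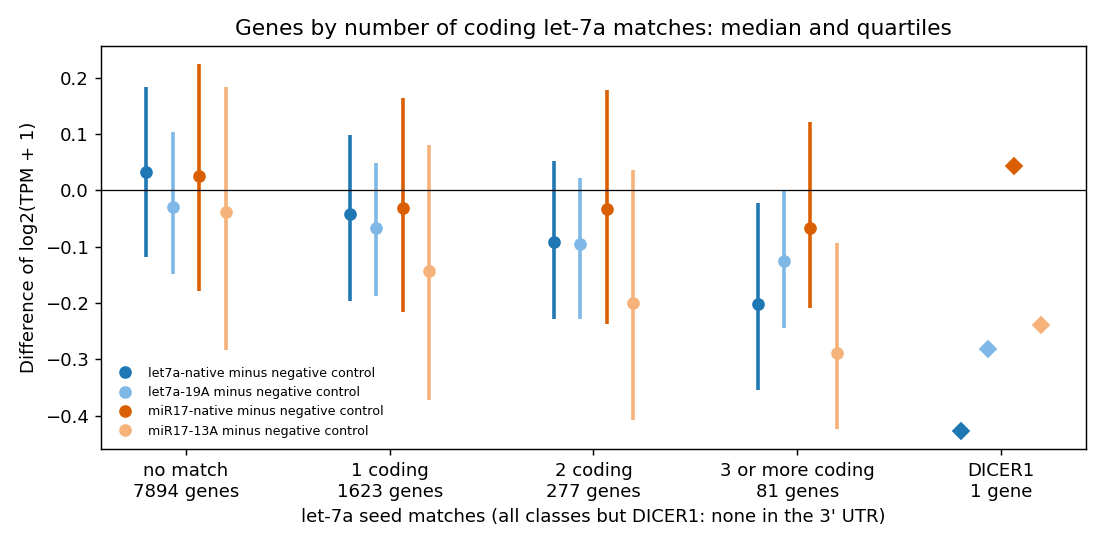
Median (points) and quartiles (lines) of the difference of log2(TPM + 1) from the control (y axis) for genes with 0, 1, 2 and 3 or more coding let-7a matches and none in the 3′ UTR (x axis), with DICER1, which has 3′ UTR matches as well, as diamonds. The medians of the class with 3 or more are -0.20 with native let-7a and -0.29 with methylated miR-17, and the DICER1 values there are -0.43 and -0.24.

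Genes with 3 or more coding let-7a 8mers did not share 1 profile. CECR2, a chromatin remodelling factor, had 6.1 TPM in the control, 4.0 and 4.7 TPM under native and methylated let-7a, and 4.4 and 3.6 TPM under native and methylated miR-17. DOCK4, an exchange factor for small GTPases, had 4.3 TPM in the control, against 2.0 to 2.4 TPM in the other libraries. MUC3A_1, a mucin entry, had 11.1 TPM in the control, beside 11.0 TPM with native let-7a. Of these 3 and DICER1, DICER1 alone was lower with native let-7a by that 25% size and not lower with native miR-17. Both the genes and the size were picked after values were seen. The pattern is not particular to DICER1 in the table. FOXP4, with no coding 8mer, had 36.8 TPM in the control, 26.6 TPM with native let-7a and 37.5 TPM with native miR-17.

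The genes whose profile over the 5 libraries was most like that of DICER1 were sought among 10780 genes averaging 5 TPM or more. Likeness was the root mean square difference between log2(TPM + 1) values centred on each gene's mean. FOXP4, a forkhead transcription factor, was the nearest at 0.0088, with 36.8 TPM in the control, 26.6 and 29.9 TPM under native and methylated let-7a, and 37.5 and 30.7 TPM with native and methylated miR-17. TPCN1, an endolysosomal cation channel, followed at 0.0151 and SLC37A1, a sugar phosphate exchanger, at 0.0194. All 3 hold 1 or 2 coding let-7a 7mers and no 3′ UTR match, beside 20.6% of searched genes with a coding match. For the other members the nearest genes were XPO1 for DROSHA (0.0127), TRAPPC11 for DGCR8 (0.0153), OSER1 for XPO5 (0.0073), HPCAL4 for TARBP2 (0.0177) and PHKA2 for PRKRA (0.0112). XPO1 and TRAPPC11 each hold 1 coding let-7a match, an 8mer in TRAPPC11. OSER1, PHKA2 and HPCAL4, the nearest to TARBP2, hold none. Whether the matches bear on the profiles was not tested. Each value rests on 5 libraries.

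The wider pathway was followed in lists by role. Of 15 Microprocessor cofactors and regulators of primary transcripts, all were tested, and none was 2-fold different from the control in any library. The share of tested genes that were ran from 2.16% to 3.7% over the microRNA libraries. Under let-7a, 9 of the 15 were lower with the native form (median -0.038) and 10 with the methylated form (-0.053). Under miR-17, 4 were lower with the native (0.053) and 9 with the methylated form (-0.047). Of all tested genes, 47.9% and 56.1% were lower with native and methylated let-7a, and 46.5% and 56.3% with native and methylated miR-17. DDX17, a helicase of the Microprocessor, had the highest difference from the control in both let-7a libraries (127.7 and 128.2 against 108.9 TPM). HNRNPA2B1, an RNA-binding protein that takes part in primary microRNA processing, had the lowest difference in 3 libraries. It had 486.8 and 434.7 TPM under native and methylated let-7a and 446.6 TPM under methylated miR-17. Its control level was 553.9 TPM. With native miR-17 the helicase DDX5 had the lowest difference, at 355.5 against 436.2 TPM. The cap-binding subunit NCBP1 had the highest, at 36.8 against 27.8 TPM. ILF2, a nuclear RNA-associated factor, had the highest difference with methylated miR-17, at 762.4 against 567.5 TPM.

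None of the 4 genes of the RAN export system, which works with XPO5, was 2-fold different from the control. Of tested genes, 2.16% to 3.7% were, depending on the library. The lowest and highest differences were -0.17, for the RAN exchange factor RCC1 with methylated miR-17 (137.7 against 155.4 TPM), and 0.29, for the RAN GTPase activator RANGAP1 with native let-7a (69.0 against 56.3 TPM). RANGAP1 also had the highest difference with methylated let-7a (62.3 TPM). With native miR-17 all 4 were below the control, beside 46.5% of all tested genes. The farthest was RCC1 at -0.13 (142.0 TPM), and XPO1 was nearest to the control (54.7 against 56.0 TPM). RAN had the lowest difference with methylated let-7a (373.8 against 403.9 TPM) and the highest difference with methylated miR-17 (408.4 TPM). XPO1 had the lowest difference with native let-7a, at 52.9 TPM.

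Of 11 genes that tail, trim or degrade precursors, 8 were tested. LIN28A, LIN28B and TRIM71, the let-7 regulators of early development, were listed at 0.1 TPM or below in all 5 libraries. PARN, a poly(A)-specific ribonuclease that trims small RNA ends, had the highest difference from the control of the 8 in every microRNA library. It had 21.1 TPM in the control, 37.1 and 32.2 TPM under native and methylated let-7a, and 36.9 and 36.4 TPM under native and methylated miR-17. The control was the low library here, with differences of 0.59 to 0.79, all under 2-fold. The lowest were the uridylyl transferases ZCCHC11 (TUT4) with native let-7a (8.3 against 9.8 TPM) and ZCCHC6 (TUT7) in the miR-17 libraries (20.3 TPM with native and 18.1 TPM with methylated, against 20.0 TPM), and the poly(A) polymerase PAPD4 with methylated let-7a (21.7 against 24.0 TPM). The medians of the 8 genes were 0.077 and 0.0 under native and methylated let-7a, and 0.14 and 0.073 under native and methylated miR-17.

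Host transcripts of microRNAs are the substrates of DROSHA. Of 10 host genes 6 were tested, and none was 2-fold different from the control in TPM + 1, beside 2.16% to 3.7% of tested genes. MIR17HG, the host of miR-17, was listed at 0.1 to 0.6 TPM. MIR210HG had 7.3 TPM in the control, 3.9 and 6.0 TPM under native and methylated let-7a, and 3.2 TPM in each miR-17 library. In the miR-17 libraries it was more than 2-fold lower in TPM, but its difference of -0.98 was under 2-fold in TPM + 1. The miR-100 host, listed as RP11-166D19.1, had 40.8 TPM in the control, against 23.7 to 33.5 TPM elsewhere, below it in all 4 libraries. MIR31HG had the lowest difference with methylated let-7a, at 11.3 against 14.9 TPM. The highest differences under let-7a were those of DLEU2 with the native form (7.1 against 5.5 TPM) and MIR22HG with the methylated form (3.8 against 2.6 TPM). In the miR-17 libraries the let-7b host, listed as FLJ27365, had the highest difference (1.7 and 1.5 against 0.9 TPM). The list medians were -0.16 with native and -0.11 with methylated let-7a, and -0.24 with each miR-17 form.

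**Figure D5:**
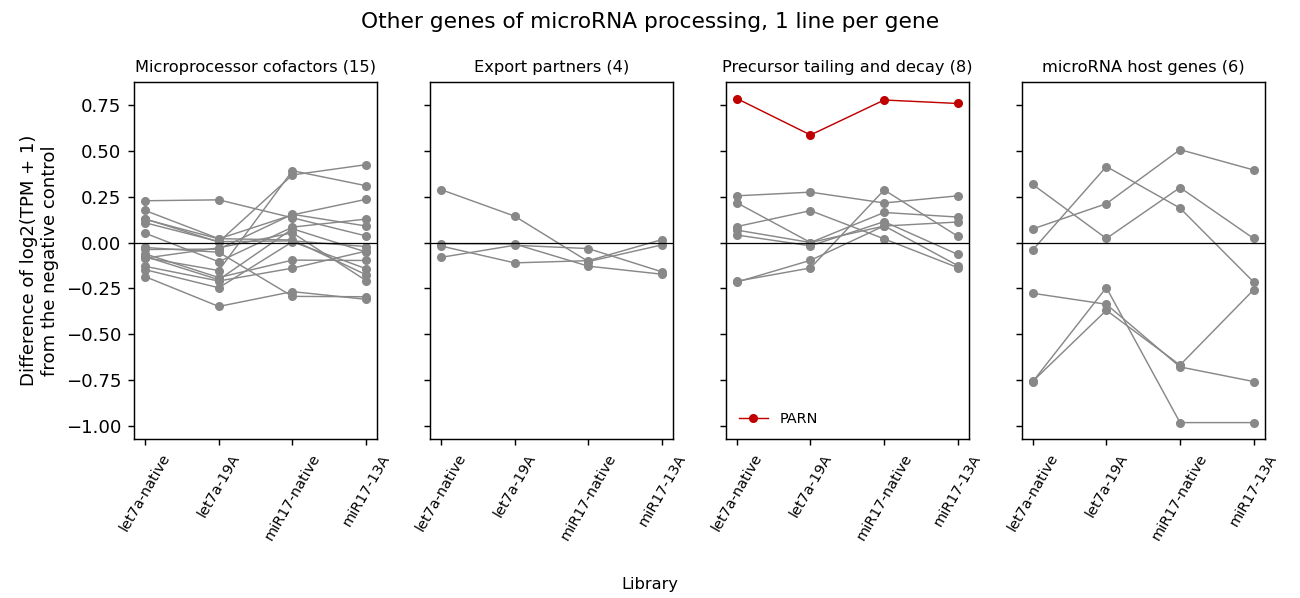
Difference of log2(TPM + 1) from the negative control (y axis) in the 4 microRNA libraries (x axis), 1 line per tested gene, in 4 lists with the number of genes in brackets. PARN, in red, lies at 0.59 to 0.79, and the host genes spread from -0.98 to 0.51.

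DICER1-AS1, annotated on the opposite strand from DICER1 with overlapping exons, had 2.2 TPM in the control, against 2.4 to 3.4 TPM in the microRNA libraries. It was highest with methylated let-7a. DGCR8, PRKRA, TARBP2 and XPO5 also have annotated exons on the opposite strand within theirs, for XPO5 those of POLR1C. The libraries were made with a stranded kit, but whether counting used the strand is not given in the sources used here, so reads of these partners may not have been kept apart.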

How the data were processed

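Isogen was used for RNA extraction and a stranded TruSeq kit with ribosomal RNA removal for the libraries, per the labels' protocols. A single table of TPM per gene, rounded to 1 decimal, was deposited, with 5 value columns, 1 per library. TPM columns share a fixed total, so depth is unknown. The build was hg19 per the submitters' processing notes, and the aligner, counting tool and annotation were each not given in the sources used here. Columns were tied to samples by title. Differences of log2(TPM + 1) were taken for 6 comparisons over genes averaging 1 TPM or more. No test was possible with 1 library per group. The script was tested on simulated data. The members, gene lists, 2-fold rule and match search were chosen with earlier results of these data known, and the 25% size after the values. Named genes are the 6 members, the nearest profiles, and in each list the highest and lowest gene against the control. The genes with 3 coding 8mers (1 is not reported here), the length classes, COL1A1, MIR17HG and the miR-100 host were picked after values were seen. Of the list genes, 63 of 64 were matched, by identifier or symbol; PECAM1 was not. Seed matches used GENCODE 29, of another build than the table, so no genome coordinates are given. Alternatives were pseudocounts of 0.1 and 5, scaling to equal medians, removal of mitochondrially encoded genes, another filter and the other microRNA as reference. Python 3.11.15 with pandas 2.3.3, numpy 2.4.6 and matplotlib 3.10.9 was used.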

Additional observations from a re-analysis of the deposited data

Results flagged for a closer look

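For DICER1 the methylated form differed from the native form in opposite directions for the 2 microRNAs, higher by 0.15 with let-7a and lower with miR-17 (-0.28), on the log2(TPM + 1) scale. The gap between these is 0.43. For DROSHA the values were 0.045 and -0.11, a gap of 0.16. Each value rests on 1 library per form, and the difference between the microRNAs was not tested. Both signs were the same for these genes under each rescaling and pseudocount tried, but scaling to equal medians took DROSHA to 0.079 and -0.03. The same scaling took DICER1 to 0.18 and -0.2. Of all tested genes, 57.1% were lower in methylated than in native let-7a and 69.0% in methylated than in native miR-17. Their medians were -0.034 and -0.089. The gap was positive in each member, at 0.16 for TARBP2 (0.16 and 0.0), 0.072 for DGCR8, 0.078 for XPO5 and 0.052 for PRKRA. Its direction is thus not particular to DICER1 and DROSHA. The class of DICER1 holds 15 genes with 3 or more coding and at least 1 3′ UTR let-7a match. Between the let-7a forms 3 of these were lower (median 0.11), and between the miR-17 forms 13 were (median -0.26). Among the 93 genes with a coding sequence at least as long as that of DICER1 and no let-7a match, 42 were lower between the let-7a forms (median 0.0) and 90 between the miR-17 forms (median -0.21).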

How the results depend on the processing

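The 36 differences of single members moved by less than 0.1 (log2) with a pseudocount of 0.1 or 5, after scaling the libraries to equal medians and after removing mitochondrially encoded genes. Signs changed for 5 of 35 nonzero values with median scaling, the largest of them 0.086 in size, and for 6 without mitochondrial genes, the largest 0.024. None of these belonged to DICER1 or DROSHA. With the other microRNA as reference, 8 of 24 values moved by more and 4 changed sign, 3 of DROSHA and that of DICER1 in methylated miR-17. For the members' median, native miR-17 went from 0.034 to 0.15 and methylated miR-17 from -0.11 to 0.051. Genes at least 2-fold different numbered 342 (native let-7a), 306 (methylated let-7a), 274 (methylated against native let-7a), 485 (native miR-17), 525 (methylated miR-17) and 238 (methylated against native miR-17). In the same order they numbered 642, 545, 495, 840, 928 and 441 with a pseudocount of 0.1, and 81, 42, 43, 124, 137 and 33 with 5. A minimum mean of 5 TPM gave 111, 74, 46, 232, 255 and 51. No filter gave 590, 549, 519 and 481 for native let-7a, methylated let-7a and the methylated against native pairs of let-7a and miR-17. No paired analysis was possible because each group holds 1 library. Leaving out a replicate was not possible for the same reason.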
